A study of Mus musculus with 288 samples.

Results

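Spon2 and Cpm are 2 of the 14044 genes listed in both lung tables of a bulk RNA sequencing study of mouse liver, white fat and lung over the day. They were chosen by their strong 24 h rhythm in lung, as seen in earlier results of the same data. Their lung rhythms, and the differences of these between lung groups, are therefore a description with no test. Both genes are listed in all 6 tables, 1 for each tissue and genotype.

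Spon2 encodes spondin 2, also called mindin, a secreted protein of the extracellular matrix with a thrombospondin repeat that, in mouse, binds bacterial surfaces and serves as an integrin ligand for leukocytes. Cpm encodes carboxypeptidase M, a metallopeptidase anchored on the outer cell surface that removes the last arginine or lysine from peptides such as bradykinin and the complement anaphylatoxins, and it is abundant in lung. In the circadian clock, the product of Arntl (also called Bmal1) pairs with CLOCK or NPAS2 and drives transcription of the Per, Cry and Nr1d genes and of Dbp, Tef and Hlf. The Per and Cry proteins repress that pair, the Nr1d proteins repress Arntl, and Dbp, Tef and Hlf encode activators that bind the D-box, where the product of Nfil3 represses.

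All mice were C57BL/6, aged 3 months, carried Cre recombinase under the albumin promoter (Alb-Cre), which is active in hepatocytes, and were kept in 12 h of light and 12 h of darkness. The controls carried Alb-Cre alone, and BLKO mice carried floxed Bmal1 alleles as well. Either genotype was fed ad libitum or, for 30 days, in the light phase alone (daytime-fed). Each of the 4 groups of a tissue held 24 libraries, 2 at each of 12 times labelled 0 to 22 h, and how hour 0 relates to lights on is not labelled. Which animal gave which library is not labelled, and the p-values thus rest on the spread among libraries, which may be technical in part.

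Library totals ranged from 923122 to 3973976 reads in lung, 1365001 to 5040306 in white fat and 1214842 to 5462461 in liver. Levels below are CPM, the reads of a gene relative to the library's total, scaled within a tissue by TMM, a method that aligns the bulk of genes between libraries. As a check of the labels, Arntl in liver ranged from 0 to 24.8 CPM over the day in Alb-Cre mice fed ad libitum and from 7.47 to 15.2 CPM in BLKO mice fed ad libitum. The Arntl count was not lower in BLKO liver, and the deleted part of the gene is not given in the sources used here, so the count does not check the deletion. Dbp, which Arntl drives, had a median of 47.8 CPM in Alb-Cre liver and 14.5 CPM in BLKO liver under ad libitum feeding.

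In the mm10 build with GENCODE M21 annotation, Spon2 lies on the minus strand at chr5:33198184-33218455, with 5 transcripts, 2 of them coding, and up to 6 exons. Cpm lies on the plus strand at chr10:117629500-117687352, with 4 transcripts, 1 of them coding, and up to 9 exons. Of the annotated genes, 1 overlaps a member, the small nuclear RNA gene Gm25709 in an intron of Cpm, and it shares no exon with it. To show the start of 1 of the rhythmic genes, the 300 bases around the RefSeq start of Cpm are given (GRCm38.p6, chr10:117629250-117629549, plus strand, 73.7% G or C), with AGGTCA, the core of the sites bound by the Nr1d and ROR receptors, in capitals.
Cpm: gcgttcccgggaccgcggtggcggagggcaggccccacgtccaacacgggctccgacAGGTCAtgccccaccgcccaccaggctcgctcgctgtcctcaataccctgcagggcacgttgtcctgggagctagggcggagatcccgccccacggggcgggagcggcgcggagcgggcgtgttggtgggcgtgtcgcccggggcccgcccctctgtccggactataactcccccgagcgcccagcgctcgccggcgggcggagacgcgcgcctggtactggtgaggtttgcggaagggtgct
AGGTCA begins at position -193 from the start. On both strands the window holds neither the E-box CACGTG nor the D-box letters TTATGTAA or TTACGTAA. Of 32851 promoter windows of this kind, 16.3% hold AGGTCA, 7.15% the E-box and 1.06% a D-box. Among the 15 clock genes with a window, 5 hold AGGTCA, 5 the E-box and 1 a D-box. These matches describe letters, not binding. The promoter of Spon2 was not analysed here.

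Spon2 in lung swung widely over the day. In Alb-Cre mice fed ad libitum its lowest, median and highest libraries stood at 3.00, 22.9 and 181 CPM. The libraries at 2 h held 181 and 167 CPM, and those at 10 h held 3.00 and 10.3 CPM. These did not overlap, and the ratio of the time means was 26.2. The lowest library rests on 6 reads, so the trough is known less well than the peak. The level fell from 74.5 CPM at 6 h to 18.1 CPM at 8 h, stayed between 6.66 and 7.08 CPM from 10 to 14 h, and climbed to 63.1 CPM by 22 h.

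Daytime feeding left Spon2 rhythmic in lung with a smaller range. In daytime-fed Alb-Cre lung the lowest, median and highest libraries were 7.32, 27.8 and 74.7 CPM, and the time means ran from 8.00 CPM at 10 h to 56.5 CPM at 2 h, a ratio of 7.07. In BLKO lung the 3 values were 2.79, 19.9 and 154 CPM under ad libitum feeding and 4.29, 24.3 and 63.3 CPM under daytime feeding. The time means there had a ratio of 38.7 and 7.28, with the high point at 2 h and the low point at 12 h in both. The 4 groups thus shared the time of the highest mean, 2 h, and the groups fed ad libitum reached higher peaks than the daytime-fed groups. Libraries of 1 time could still differ widely: at 4 h in ad libitum BLKO lung they held 60.6 and 11.7 CPM.

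A cosine of 24 h fitted to log2 CPM gave Spon2 a peak-to-trough range of 4.48 ± 0.36 log2 units (SE, n = 24), peaking at 1.40 ± 0.34 h, in ad libitum Alb-Cre lung. The range was 2.20 ± 0.30 with a peak at 0.03 ± 0.51 h in daytime-fed Alb-Cre lung. In BLKO lung it was 3.82 ± 0.42 with a peak at 0.08 ± 0.44 h under ad libitum feeding and 2.04 ± 0.37 with a peak at 22.2 ± 0.67 h under daytime feeding. The fitted peak came earlier under daytime feeding by 1.37 h in Alb-Cre mice (shift -1.37 ± 0.62 h) and by 1.83 h in BLKO mice (shift -1.83 ± 0.80 h).

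Cpm in lung had a higher median than Spon2 in each group and a flatter profile, and stood below Spon2 at the 2 h peak of ad libitum Alb-Cre lung. In ad libitum Alb-Cre lung its lowest, median and highest libraries were 43.0, 79.1 and 110 CPM. The libraries at 6 h held 110 and 90.6 CPM and those at 14 h held 47.96 and 43.3 CPM, so that they did not overlap and their means had a ratio of 2.20. From 0 to 10 h the time means stayed between 85.4 and 100.4 CPM, and from 14 to 20 h they stayed between 45.6 and 53.4 CPM. The profile was thus a broad plateau and a broad trough, where Spon2 had a sharp peak at 2 h.

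The other lung groups had smaller Cpm ranges. Daytime-fed Alb-Cre libraries ran from 48.8 through a median of 70.0 to 91.8 CPM, with the highest mean at 0 h and the lowest at 12 h (ratio 1.70). Ad libitum BLKO libraries ran from 37.8 through 61.6 to 88.7 CPM, highest at 4 h and lowest at 14 h (ratio 1.70). Daytime-fed BLKO libraries ran from 47.2 through 66.3 to 78.6 CPM, highest at 20 h and lowest at 12 h (ratio 1.37). The fitted range of Cpm was 1.07 ± 0.10, 0.44 ± 0.10, 0.79 ± 0.11 and 0.31 ± 0.08 log2 units in ad libitum and daytime-fed Alb-Cre and ad libitum and daytime-fed BLKO lung. The fitted peaks were at 4.82 ± 0.38, 23.8 ± 0.87, 3.26 ± 0.58 and 22.8 ± 1.02 h in the same order, a shift under daytime feeding of -5.05 ± 0.95 h in Alb-Cre and -4.43 ± 1.17 h in BLKO mice.

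**Figure D1:**
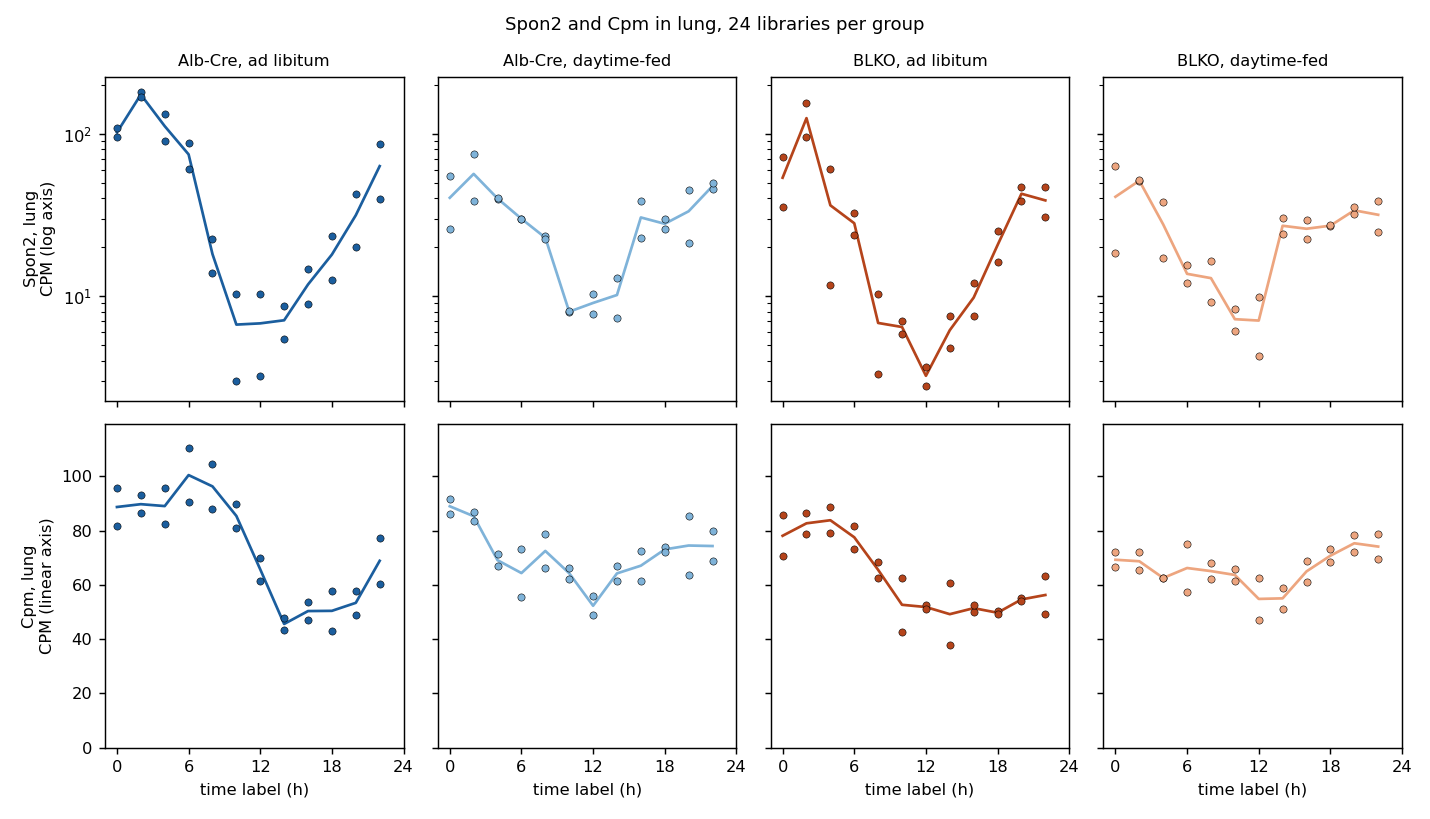
CPM of Spon2 (upper row, log axis) and Cpm (lower row, linear axis from 0) in lung against the time label in hours, 1 panel for each group; points are libraries (2 per time) and lines join the time means. Spon2 peaks at 2 h in all 4 groups, with time means of 174 and 125 CPM under ad libitum feeding and 56.5 and 51.3 CPM under daytime feeding, and Cpm has its highest means at 6, 0, 4 and 20 h from left to right.

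Over all 12491 genes tested in lung, 14.3% were called rhythmic in ad libitum and 1.3% in daytime-fed Alb-Cre mice, and 12.1% and 0.969% in the BLKO mice (edgeR quasi-likelihood F test, adjusted p under 0.05). By p-value for rhythm, Spon2 held places 3, 22, 5 and 18 and Cpm places 13, 88, 23 and 475 among these genes, in the group order above. These places are the measure the genes were chosen by, so nothing is read from them.

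In the median, the clock genes of the same lungs moved in the same direction as the fitted peaks of the members under daytime feeding. Not every clock gene did: Per1 moved later, from 12.6 to 15.2 h in Alb-Cre and from 11.5 to 13.2 h in BLKO lung. The peak shift of 14 clock genes had a median of -1.86 h (range -3.34 to 2.56 h) in Alb-Cre and -2.35 h (range -3.79 to 1.69 h) in BLKO lung. The shift of Spon2 lay inside both ranges, and that of Cpm lay outside both, further toward earlier hours. The fitted range of all 14 clock genes was smaller under daytime feeding in either genotype, with a median of 2.39 against 1.17 log2 units in Alb-Cre and 2.18 against 1.14 in BLKO lung. Clock and Bhlhe41 were not analysed in lung.

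Spon2 peaked close to Arntl and opposite Tef in every lung group. Its fitted peak followed that of Arntl by 1.82 ± 0.46, 1.35 ± 0.85, 0.56 ± 0.54 and 1.06 ± 0.90 h in ad libitum and daytime-fed Alb-Cre and ad libitum and daytime-fed BLKO lung. Its distance from the peak of Tef was -10.7 ± 0.46, -10.3 ± 0.64, -11.2 ± 0.60 and -11.0 ± 1.01 h in that order. Npas2 peaked near Spon2 as well, with distances of 1.03 ± 0.53, 1.99 ± 1.36, -0.04 ± 0.72 and 0.92 ± 1.07 h. The place of Cpm moved more between feeding regimens. Its peak followed that of Arntl by 5.24 ± 0.49 and 3.74 ± 0.66 h under ad libitum feeding and by 1.09 ± 1.10 and 1.65 ± 1.19 h under daytime feeding, in Alb-Cre and BLKO lung.

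**Figure D2:**
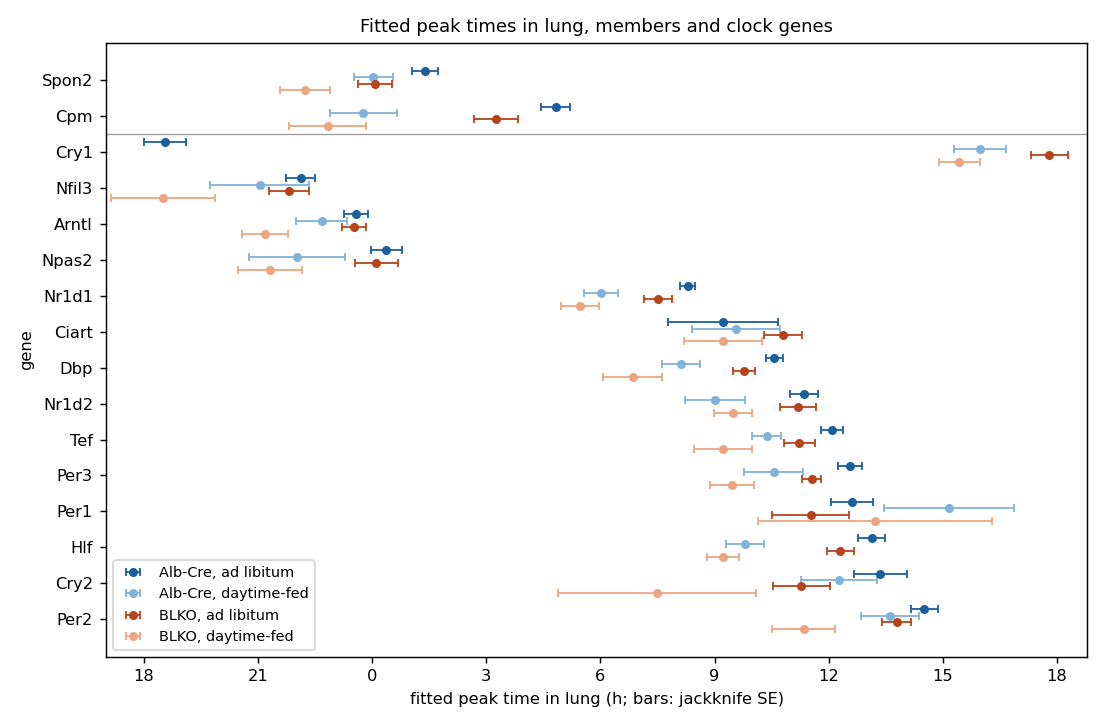
Fitted peak time in lung of Spon2, Cpm and 14 clock genes (horizontal axis in hours, wrapping at 18 h; bars are jackknife SE over 24 libraries; colours are the 4 groups). Spon2 stays within 0.56 to 1.82 h after Arntl in each group, whereas Cpm lies 5.24 h after Arntl in ad libitum Alb-Cre lung and 1.09 h after it in daytime-fed Alb-Cre lung.

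Across the 24 libraries of a lung group, where time of day moves both genes, Pearson's r of log2 CPM between Spon2 and Tef was -0.92, -0.83, -0.95 and -0.82 in the group order above, and between Spon2 and Arntl 0.80, 0.72, 0.86 and 0.86. Cpm had a looser relation to the same genes, at -0.28, -0.58, -0.38 and -0.60 with Tef and -0.68, -0.38, -0.79 and -0.75 with Per2. Spon2 and Cpm correlated with each other at 0.53, 0.67, 0.55 and 0.51. The 2 libraries of 1 time share that time, and all values of a group share its scaling, so these correlations are a description.

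A further question was whether a member and a clock gene differed together between the 2 libraries of the same group and time, where the time label is equal. An equal label does not fix the clock phase: at 0 h in ad libitum BLKO lung the libraries held 33.2 and 217 CPM of Nr1d1. A difference of phase between 2 libraries would move both genes along the rhythm that chose the members, and its part was not tested. The difference of library A and library B was taken in 48 pairs of lung libraries, and 28 relations (each member with 14 clock genes) were tested with a two-sided permutation test of 100000 exchanges of A and B, whose smallest p is 1e-05. In the library with more Tef, Spon2 was lower in 35 of 48 pairs, with r = -0.75 and Spearman's rho = -0.74 (p = 1e-05, the smallest possible, Benjamini-Hochberg adjusted p = 0.00028). Without the 2 pairs with the largest Tef difference r was -0.68. The test exchanges each pair on its own, but in ad libitum BLKO lung the differences ran in order over time. There Tef was lower in library A from 0 to 10 h and higher from 12 to 22 h. The pairs may thus not be independent, and the p-values of all tests between library A and library B may be too small. Without that group r with Tef was -0.72.

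Per3, Cry2 and Dbp gave the same direction for Spon2. With Per3, r was -0.57 and rho -0.59 (p = 2e-05, adjusted 0.00028 by the permutation test), opposite in 35 of 48 pairs, and r was -0.60 without the 2 farthest pairs. With Cry2, r was -0.57 and rho -0.55 (p = 6e-05, adjusted 0.00056 by the permutation test), opposite in 30 of 48 pairs, and r was -0.48 without the 2 farthest pairs. With Dbp, r was -0.50 and rho -0.43 (p = 0.00311, adjusted 0.0218 by the permutation test), opposite in 33 of 48 pairs, and r was -0.52 without the 2 farthest pairs. The call for Dbp was lost when daytime-fed Alb-Cre, ad libitum BLKO or daytime-fed BLKO lung was left out, with adjusted p of 0.111, 0.064 and 0.0895 and r of -0.50, -0.43 and -0.46.

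The other 10 clock genes did not pass for Spon2 over all 48 pairs. Per1 passed without ad libitum Alb-Cre lung (r = -0.55, adjusted p = 0.013) and Per2 without ad libitum BLKO lung (r = -0.39, adjusted p = 0.0417, permutation test). Arntl, the clock gene with the highest r with Spon2 over the 96 lung libraries, gave r = 0.40 and rho = 0.34 (p = 0.0297, adjusted 0.0946 by the permutation test), and Nr1d1 gave r = -0.32. Within single groups of 12 pairs, r of Spon2 with Tef was -0.74, -0.57, -0.84 and -0.81, with exact permutation p of 0.00879, 0.0723, 0.0117 and 0.0205. The sign was thus the same in all 4 groups.

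Cpm passed with none of the 14 clock genes. Its closest relation was with Npas2, a partner of Arntl, at r = 0.40 and rho = 0.46 (p = 0.0122, adjusted 0.0659 by the permutation test), in the same direction in 36 of 48 pairs. Spon2 and Cpm differed in the same direction in 33 of 48 pairs, at r = 0.33 and rho = 0.36 (p = 0.0102 by the permutation test, a relation chosen after the values were seen), and r was 0.32 without the 2 farthest pairs.

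For scale, the same r with Tef was computed over 9181 lung genes with a mean of at least 10 CPM. Its median was -0.01, with the 5th percentile at -0.32 and the 95th at 0.32. Spon2 held place 1 from the low end, and Cpm held place 750. The 9181 genes were taken by level and not by rhythm, whereas the members were chosen for their rhythm, so this is no comparison among like cyclers. These places were computed after the values were seen and carry no test.

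**Figure D3:**
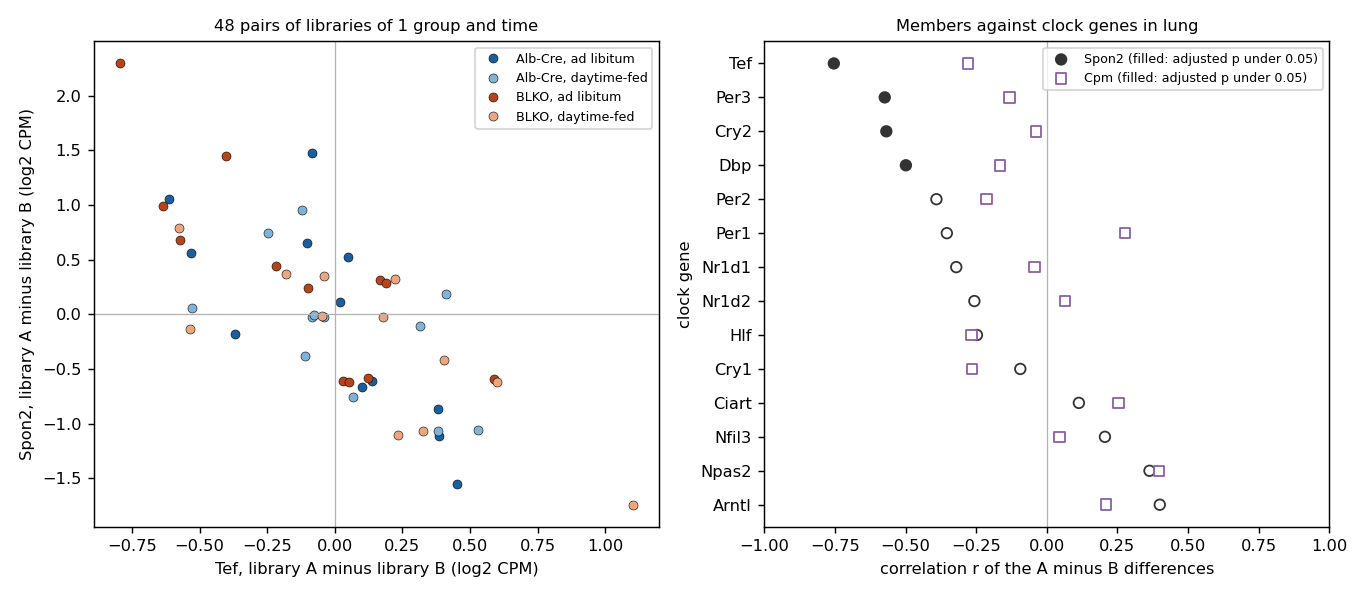
Left, difference in log2 CPM between library A and library B of the same lung group and time, for Tef (horizontal) and Spon2 (vertical), 48 pairs coloured by group; right, the correlation r of such differences for Spon2 (circles) and Cpm (squares) with each of 14 clock genes, filled where the adjusted p was under 0.05. The pairs run from upper left to lower right (r = -0.75), and 4 circles (Tef, Per3, Cry2 and Dbp) and none of the squares are filled.

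The lung genes most like each member were taken by Pearson's r over 96 lung libraries after the group means were removed, among 9181 genes. For Spon2 they were Eln, which encodes elastin (r = 0.86), Arntl (0.81), Dtx4, an E3 ubiquitin ligase of the Notch pathway (0.81), Leo1, a subunit of the PAF1 complex (0.78), and Creb3l1, a transcription factor anchored in the endoplasmic reticulum (0.77). The lowest were Tef (-0.91), Per3 (-0.87) and the tetraspanin Tspan4 (-0.86). In ad libitum Alb-Cre lung, Eln peaked at 1.29 h with a fitted range of 1.91 log2 units, close to the Spon2 peak at 1.40 h.

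For Cpm the most like genes were Cxcl15, a chemokine of lung epithelium (r = 0.75), Mmp15, a membrane metalloproteinase (0.74), Fam189a2 (0.74), Eif4g3, a translation initiation factor (0.70), and Hdc, histidine decarboxylase (0.70). The lowest were Cys1 (-0.75), Per2 (-0.68) and Naa60 (-0.67). Cpm was in place 61 for Spon2 and Spon2 in place 41 for Cpm, with r = 0.55. In ad libitum Alb-Cre lung alone, 3 of the 5 genes most like Spon2 and 0 of the 5 most like Cpm were among the top 5.

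Few of the members' relatives and partners were called rhythmic in lung, and with 14.3%, 1.3%, 12.1% and 0.969% of all genes called in the 4 groups, lists this short do not stand apart from the background. Of 16 other metallocarboxypeptidases listed by name, 7 were tested, and 0 were called rhythmic in any lung group. The count was 0 of 3 tested among spondin and thrombospondin repeat genes and 0 of 5 among integrin subunits reported to bind the Spon2 protein. Among kinin and anaphylatoxin genes it was 0 of 6 in 3 groups and 1 of 6 in ad libitum BLKO lung, where Ace, which encodes the angiotensin-converting enzyme that also degrades bradykinin, passed (adjusted p = 0.0173 by edgeR). Of the 14 clock genes, 14, 12, 14 and 9 were called in ad libitum and daytime-fed Alb-Cre and ad libitum and daytime-fed BLKO lung.

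The mean level over the day was not the measure that chose the members, and it was tested. Spon2 was lower in BLKO than in Alb-Cre lung under ad libitum feeding by 0.55 on the log2 scale (-0.55 ± 0.18, adjusted p = 0.00592 by edgeR). Cpm was lower by 0.21 (-0.21 ± 0.05, adjusted p = 1.25e-04 by edgeR). Under daytime feeding the difference was -0.20 ± 0.18 for Spon2 (adjusted p = 0.327) and -0.10 ± 0.05 for Cpm (adjusted p = 0.0723), and neither passed in edgeR. The genotype difference did not pass a test of change with feeding, at 0.36 ± 0.25 for Spon2 (adjusted p = 0.459) and 0.11 ± 0.07 for Cpm (adjusted p = 0.393, edgeR). The libraries of either genotype overlapped for both genes.

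These calls stand against a high background: 64.8% of lung genes were called between genotypes under ad libitum and 62% under daytime feeding. The genotypes were deposited in separate tables and the sample titles give each group a number of its own, so a batch, if there is one, cannot be told apart from the genotype or, within a genotype, from the feeding regimen. This holds for the feeding and genotype contrasts of all 3 tissues. Cell type markers moved with the same contrast under ad libitum feeding, and not all in 1 direction. The summed ciliated markers had medians of 181 CPM in Alb-Cre and 296 CPM in BLKO lung, and the club markers 4.855e+04 and 5.549e+04 CPM. Mesothelial markers had 127 and 149 CPM, lymphocyte markers 35.0 and 42.1 CPM and smooth muscle markers 910 and 700 CPM. Of tested markers, 4 of 4 alveolar type 1 genes were lower in BLKO lung (median -0.61 on the log2 scale), as were 5 of 6 alveolar type 2 (-0.26), 3 of 4 endothelial (-0.31) and 4 of 5 alveolar macrophage genes (-0.48), while 3 of 5 fibroblast genes were higher and 1 lower (median 0.30). The part of these in the members' differences was not tested, and in bulk tissue fewer cells of a type and less RNA per cell cannot be told apart.

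The daily mean of neither member passed for feeding in lung. Daytime-fed minus ad libitum was -0.20 ± 0.18 log2 units for Spon2 in Alb-Cre (adjusted p = 0.551) and 0.16 ± 0.18 in BLKO mice (adjusted p = 0.724, edgeR). For Cpm it was -0.02 ± 0.05 (adjusted p = 0.891) and 0.09 ± 0.05 (adjusted p = 0.311, edgeR). Over all lung genes 8.89% and 4.32% were called. Under daytime feeding the highest time mean was lower and the lowest time mean higher than under ad libitum feeding for both members in either genotype.

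The same lists were counted for the daily mean in ad libitum BLKO against Alb-Cre lung, where the median over all genes was -0.01 log2 units and 64.8% were called, so counts of this size are read as no more than the background. Of 7 carboxypeptidase genes 4 passed, 1 higher and 3 lower (median -0.17), among them Cpd, a carboxypeptidase of the trans-Golgi network (-1.08 ± 0.18, adjusted p = 1.09e-07 by edgeR), and Cpe, which trims prohormones (-0.31 ± 0.11, adjusted p = 0.0115 by edgeR). Of 3 spondin and thrombospondin repeat genes 3 passed, with 2 higher and 1 lower (median 0.23). Spon1, the closest named relative of Spon2 in that list, was lower (-0.82 ± 0.13, adjusted p = 8.95e-08 by edgeR). Of 6 kinin and anaphylatoxin genes 6 passed, 4 higher and 2 lower (median 0.20). Bdkrb1, the bradykinin receptor that binds the product of carboxypeptidase action, was higher (1.64 ± 0.17, adjusted p = 5.18e-14 by edgeR). Of 5 integrin subunits 3 passed, with Itga5 higher (1.49 ± 0.17) and Itga4 (-1.04 ± 0.11) and Itgb1 (-0.39 ± 0.05) lower. For feeding in Alb-Cre lung, where 8.89% of all genes were called, the lists gave 1 of 7, 0 of 3, 1 of 6 and 2 of 5. In BLKO lung, where 4.32% were called, they gave 0 of 7, 0 of 3, 1 of 6 and 0 of 5. Lists this short do not stand apart from these shares. Ace passed in both genotypes (0.17 ± 0.05, adjusted p = 0.0271, and 0.19 ± 0.05, adjusted p = 0.0141, edgeR).

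Summed markers of 12 cell types were fitted with the same 24 h cosine in lung, and their ranges were at most 1.26 log2 units, with most below 0.5. The summed level of 4 endothelial markers correlated with Cpm at r = 0.70, 0.57, 0.62 and 0.28 and with Spon2 at 0.54, 0.37, 0.65 and 0.20 across the 24 libraries of each group, in the order above. Its own fitted range was 0.42 ± 0.09 log2 units and its peak at 4.32 ± 0.80 h in ad libitum Alb-Cre lung, against 1.07 for Cpm and 4.48 for Spon2. In ad libitum BLKO lung it was 0.22 ± 0.09 with a peak at 1.38 ± 1.73 h. The summed alveolar type 1 markers had a range of 0.22 ± 0.07 and 0.10 ± 0.11 in these groups. The summed lymphocyte markers had a range of 0.71 ± 0.22 with a peak at 3.91 ± 1.42 h and of 0.77 ± 0.29 with a peak at 4.84 ± 1.63 h there. These lymphocyte markers correlated with Cpm at r = 0.61, -0.14, 0.32 and 0.51 in the 4 groups, in the order above. The endothelial markers were not alone in their relation to Cpm. In ad libitum BLKO lung r was 0.70 for ciliated, 0.59 for alveolar type 2, 0.56 for club and -0.68 for smooth muscle markers. In daytime-fed BLKO lung the same relations were 0.13, -0.21, -0.04 and 0.07. The ciliated and club markers had fitted ranges of 0.50 ± 0.12 and 0.51 ± 0.13 in ad libitum BLKO lung. The part of these cell types in the members' rhythm was not tested.

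In white fat Spon2 was rhythmic under ad libitum feeding and was tested, since this tissue did not serve to choose it. The lowest, median and highest libraries of ad libitum Alb-Cre fat were 6.68, 11.9 and 32.7 CPM, with 20.5 and 32.7 CPM at 2 h and 6.68 and 10.2 CPM at 16 h. The high and low times did not overlap. The fitted range was 1.58 ± 0.16 log2 units and its peak at 3.66 ± 0.44 h (adjusted p = 3.09e-08 by edgeR). In ad libitum BLKO fat the libraries ran from 9.37 through 16.6 to 40.6 CPM, with a range of 0.88 ± 0.22 and a peak at 2.43 ± 0.87 h (adjusted p = 0.00595 by edgeR). This call was lost without the libraries of 2 h (adjusted p = 0.0782).

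The rhythm in white fat did not pass under daytime feeding. In daytime-fed Alb-Cre fat the 3 values were 7.79, 13.3 and 23.5 CPM, with a range of 0.41 ± 0.21 (adjusted p = 0.25 by edgeR). In daytime-fed BLKO fat they were 7.20, 14.6 and 24.1 CPM, with a range of 0.68 ± 0.24 and a peak at 20.6 ± 1.49 h (adjusted p = 0.0549 by edgeR and 0.044 by DESeq2). The difference of rhythm between feeding regimens passed in Alb-Cre fat (adjusted p = 6.13e-07 by edgeR) and in BLKO fat (adjusted p = 0.0218 by edgeR). The latter was lost without the libraries of 6, 14 or 20 h, with adjusted p of 0.0752, 0.0688 and 0.0914. The feeding effect on rhythm did not pass a test of difference between genotypes (adjusted p = 1 by edgeR).

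Over 11741 genes tested in white fat, 7.49%, 19.6%, 3.71% and 7.08% were called rhythmic in ad libitum and daytime-fed Alb-Cre and ad libitum and daytime-fed BLKO mice. For the change of rhythm with feeding 11.2% and 8.33% were called in Alb-Cre and BLKO fat. Spon2 was thus rhythmic in Alb-Cre fat under the regimen with fewer rhythmic genes in the fit of all 4 groups. With each group fitted alone, 1147 genes were called in ad libitum and 1094 in daytime-fed Alb-Cre fat, so that order depends on the fit. Dbp, by comparison, had a range of 4.36 ± 0.17 log2 units and its peak at 11.4 ± 0.18 h in ad libitum Alb-Cre fat and of 1.77 ± 0.39 with a peak at 1.91 ± 0.97 h in daytime-fed Alb-Cre fat.

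The daily mean of Spon2 was higher in BLKO than in Alb-Cre fat under ad libitum feeding (0.34 ± 0.10 log2 units, adjusted p = 0.00387 by edgeR), where 61.5% of genes were called. The summed endothelial markers had a median of 649 CPM there against 547 CPM in Alb-Cre fat, with 2 of 4 markers higher and 0 lower, and correlated with Spon2 at r = 0.69, 0.44, 0.57 and 0.61 across the libraries of ad libitum and daytime-fed Alb-Cre and ad libitum and daytime-fed BLKO fat. In the same contrast 4 of 5 smooth muscle markers were higher, 3 of 5 fibroblast markers lower and 1 of 4 adipocyte markers higher. Their part in the difference was not tested. Spon2 did not pass under daytime feeding (0.14 ± 0.11, adjusted p = 0.267), where 56% were called. With feeding it was -0.06 ± 0.11 in Alb-Cre (adjusted p = 0.796) and -0.26 ± 0.11 in BLKO fat (adjusted p = 0.112, edgeR), against 9.62% and 9.85% of genes called.

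In liver, the tissue where Cre acts, Spon2 was rhythmic in Alb-Cre mice and did not pass in BLKO mice. In ad libitum Alb-Cre liver the lowest, median and highest libraries were 2.48, 21.1 and 48.3 CPM. The libraries at 0 h held 46.7 and 39.0 CPM and those at 12 h held 2.69 and 2.48 CPM, a ratio of means of 16.6 with no overlap. The fitted range was 3.08 ± 0.28 log2 units and its peak at 1.66 ± 0.34 h (adjusted p = 2.04e-12 by edgeR), close to the hour seen in lung. In daytime-fed Alb-Cre liver the 3 values were 3.04, 15.7 and 38.1 CPM, with a range of 1.26 ± 0.36 and a peak at 14.3 ± 1.21 h (adjusted p = 0.042 by edgeR).

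The call in daytime-fed Alb-Cre liver was a weak one. It was lost without TMM scaling (adjusted p = 0.0758), when the group was fitted alone (0.132) and without the libraries of 0, 2, 4, 10, 14, 16 or 20 h, with adjusted p from 0.0511 to 0.25. Time means were low at 0 to 4 h, between 5.30 and 8.22 CPM, and between 13.3 and 25.4 CPM at the other times. The highest mean was at 22 h, where the libraries held 38.1 and 12.7 CPM, so the fitted peak at 14.3 h is not the hour of the highest mean. The change of rhythm with feeding itself passed in all alternatives run (adjusted p = 1.76e-11 by edgeR), with a fitted shift of -11.3 ± 1.26 h. Arntl and Dbp in the same livers shifted by -11.9 ± 0.67 and -11.9 ± 0.51 h.

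In BLKO liver Spon2 stayed high at all times. Under ad libitum feeding the lowest, median and highest libraries were 18.9, 44.4 and 88.8 CPM and under daytime feeding 28.7, 50.4 and 77.4 CPM. The lowest BLKO libraries thus stood above the Alb-Cre trough near 12 h, while the groups overlapped over the whole day. The fitted range was 0.50 ± 0.28 (adjusted p = 0.329) and 0.46 ± 0.17 log2 units (adjusted p = 0.498), and neither passed in edgeR. The change of rhythm with feeding did not pass in BLKO liver (adjusted p = 0.96), and it differed from that in Alb-Cre liver (interaction, adjusted p = 3.94e-07 by edgeR). Between genotypes the rhythm differed under ad libitum feeding (adjusted p = 2.94e-06) and did not pass under daytime feeding (adjusted p = 0.113, edgeR). The latter passed with the time and letter labels as a replicate block (adjusted p = 0.0475) and without the libraries of 22 h (adjusted p = 0.00386).

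The daily mean of Spon2 was higher in BLKO than in Alb-Cre liver by 1.41 ± 0.14 log2 units under ad libitum feeding (adjusted p = 9.49e-16 by edgeR) and by 1.80 ± 0.14 under daytime feeding (adjusted p = 2.08e-21 by edgeR). Daytime-fed minus ad libitum was -0.24 ± 0.15 in Alb-Cre (adjusted p = 0.375) and 0.15 ± 0.12 in BLKO liver (adjusted p = 0.556), and neither passed in edgeR. The sign of the genotype difference under ad libitum feeding was positive in liver and white fat and negative in lung, and a test across tissues was not run. Over all liver genes 58.4% and 57.9% were called between genotypes under ad libitum and daytime feeding. Marker lists this short do not stand apart from that. Of the tested liver markers, 4 of 4 hepatocyte genes changed between genotypes, 1 higher and 3 lower (median -0.28). So did 1 of 4 endothelial genes, which was higher (median 0.01), and 4 of 5 fibroblast genes, 2 higher and 2 lower (median -0.27). Their part in the difference was not tested.

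Over 9440 genes tested in liver, 16.8%, 18.6%, 6.3% and 7.3% were called rhythmic in ad libitum and daytime-fed Alb-Cre and ad libitum and daytime-fed BLKO mice. The change of rhythm with feeding was called for 27.8% in Alb-Cre and 14.4% in BLKO liver, the interaction for 6.83%, and the genotype difference of rhythm for 4.7% under ad libitum and 1.56% under daytime feeding. For the daily mean, 58.4% and 57.9% were called between genotypes under ad libitum and daytime feeding, and 7.52% and 4.01% between feeding regimens in Alb-Cre and BLKO mice. Of 15 clock genes, 15, 12, 4 and 0 were called rhythmic in the 4 groups.

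**Figure D4:**
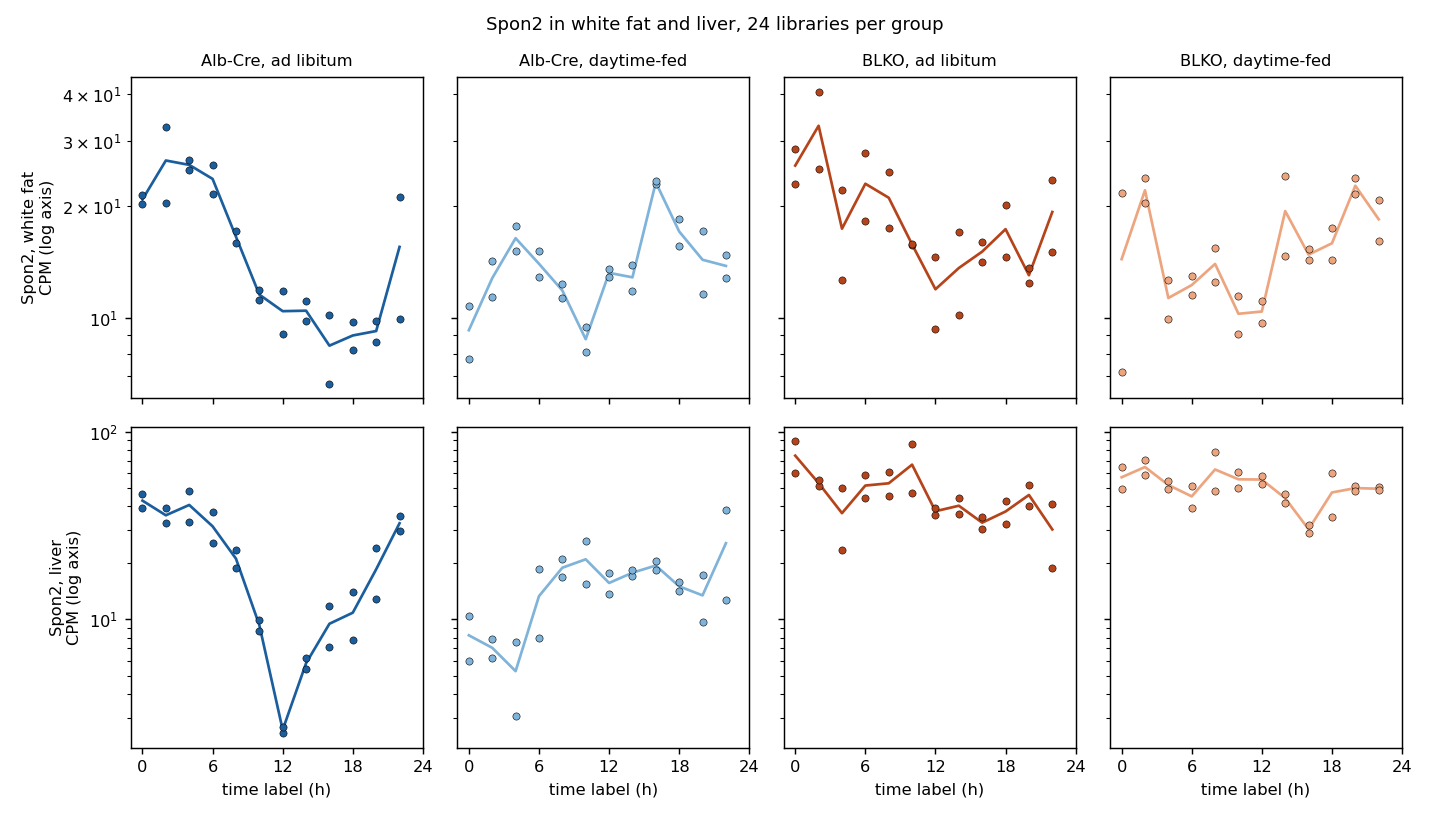
CPM of Spon2 (log axes) in white fat (upper row) and liver (lower row) against the time label in hours, 1 panel for each group; points are libraries (2 per time) and lines join the time means. In ad libitum Alb-Cre liver the means fall from 42.9 CPM at 0 h to 2.58 CPM at 12 h, whereas the BLKO liver libraries lie between 18.9 and 88.8 CPM at all times.

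Across the 24 libraries of a group, r with Tef was -0.85 and -0.70 in ad libitum and daytime-fed Alb-Cre liver and 0.11 and 0.24 in BLKO liver, where Tef itself had a fitted range of 0.24 ± 0.09 and 0.08 ± 0.09 log2 units. In white fat r with Tef was -0.51 and -0.29 in Alb-Cre and -0.58 and -0.14 in BLKO mice, for ad libitum and daytime feeding. Between libraries of the same time, 0 of 15 clock genes passed for Spon2 in either tissue by the permutation test. The lowest adjusted p was 0.0501 for Ciart in white fat (r = -0.42, p = 0.00334) and 0.221 in liver, and these tests were chosen after the lung values were seen.

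Cpm was scarce outside the lung. White fat libraries held 1 to 19 reads of it, with medians between 1.26 and 1.84 CPM in the 4 groups, and liver libraries held 0 to 11 reads, with medians between 0.64 and 0.98 CPM. In liver it did not reach the filter for testing. In white fat it passed for rhythm in none of the 4 groups (adjusted p from 0.362 to 0.94 by edgeR). Its mean was higher in BLKO than in Alb-Cre fat under ad libitum feeding (0.65 ± 0.22 log2 units, adjusted p = 0.00723 by edgeR), where 61.5% of genes were called. This call for Cpm was lost without the libraries of 12 h (adjusted p = 0.0508).

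Set side by side, with each tissue scaled separately, the median of Cpm was 61.6 to 79.1 CPM in the lung groups and below 2 CPM in the others. The median of Spon2 was highest in BLKO liver (50.4 and 44.4 CPM). It was 19.9 to 27.8 CPM in the 4 lung groups, 21.1 and 15.7 CPM in Alb-Cre liver and 11.9 to 16.6 CPM in white fat, and these spans interleave. The ranges of the lung, Alb-Cre liver and white fat groups overlapped, and the single highest library of all was the ad libitum Alb-Cre lung library with 181 CPM at 2 h.

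Libraries of the same group and label in different tissues may come from 1 animal, which the labels do not state. Across genes, the differences between library A and library B correlated between tissues at a median of 0.10 for lung and liver (range 0.015 to 0.19, 24 of 48 over 0.1), 0.07 for lung and white fat (17 of 48) and 0.07 for white fat and liver (16 of 48). The difference between library A and library B of Spon2 in lung went with that in white fat (r = 0.50, rho = 0.44, p = 0.0074, adjusted p = 0.0444 over 6 tests by the permutation test), in the same direction in 31 of 48 pairs, and r was 0.34 without the 2 pairs with the largest lung difference. It did not pass between white fat and liver (r = 0.30, rho = 0.30, p = 0.023, adjusted p = 0.069) or between lung and liver (r = 0.18, rho = 0.10, p = 0.272, adjusted p = 0.543, permutation test). For Cpm none of the 3 tissue pairs passed, with r between -0.00283 and 0.12 and adjusted p from 0.801 to 0.986 (permutation test). Leaving out each group in turn, the lung and white fat relation of Spon2 had r between 0.45 and 0.53 and unadjusted permutation p between 0.00893 and 0.0367. Within single groups of 12 pairs r was 0.46, 0.25, 0.52 and 0.64, and none passed (exact permutation p from 0.118 to 0.595).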

How the data were processed

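The authors deposited raw read counts per gene for 288 libraries in 6 tables, 1 for each tissue and genotype. Sample titles gave each count column its library (0 columns without a sample). The submitters' processing notes name the build mm10 and, with no order, HTSeq, STAR, DESeq2, cutadapt and bcl2fastq. Settings and strand mode were not stated there. The deposited normalized values were not used. Per the labels' protocols, actin cDNA was used to balance input and libraries were amplified by in vitro transcription.

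Genes listed in both tables of a tissue were analysed. Each tissue had 1 fit of its 96 libraries with edgeR 4.0.16 (R 4.3.3): filterByExpr, TMM, and a mean, cosine and sine of 24 h for each group (12 coefficients), tested by the quasi-likelihood F test with Benjamini-Hochberg adjustment over all genes tested. Descriptive fits used log2 CPM with a prior count of 2 and, for peak times, a jackknife SE. DESeq2 1.42.0, no filter, no TMM, each time left out, a replicate block and other alternatives were run. The fits were checked on simulated data.

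The members and lists were chosen with earlier results of these data known. Genes named by likeness were the 5 highest and 3 lowest by r, and at most 4 genes per list could be named, from those that passed with the lowest p. Python 3.11.15, SciPy 1.17.1 and matplotlib 3.10.9 were used.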

Additional observations from a re-analysis of the deposited data

Results flagged for a closer look

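The change of the 24 h rhythm of Spon2 with daytime feeding in liver differed between genotypes, by the test of the difference itself (interaction of cosine and sine, adjusted p = 3.94e-07 by edgeR, with 6.83% of liver genes called). In Alb-Cre liver the fitted range was 3.08 ± 0.28 log2 units with a peak at 1.66 h under ad libitum and 1.26 ± 0.36 with a peak at 14.3 h under daytime feeding (n = 24 each), whereas in BLKO liver it was 0.50 ± 0.28 and 0.46 ± 0.17. The adjusted p stayed between 1.74e-09 and 1.98e-05 in the 16 alternatives run. The genotypes stand in separate tables, and titles number each group, so a batch cannot be told apart from genotype or feeding.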

How the results depend on the processing

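Of the members' values under the alternatives run, 1109 kept their side of the threshold or, where untested, did not move. Another 17 lost a call, 9 gained one and 14 untested values moved. No value that passed in either setting changed direction. Some that passed in neither did, such as r of Spon2 with Cry1 between lung libraries of the same time. It was -0.09, and 0.09 without ad libitum Alb-Cre lung. In white fat, the Spon2 rhythm in daytime-fed BLKO mice passed with DESeq2 (adjusted p = 0.044) and had adjusted p from 0.0253 to 0.212 when both libraries of each time were left out in turn. The same range was 0.00123 to 0.0782 in ad libitum BLKO fat and 0.0163 to 0.0914 for the change with feeding in BLKO fat. In daytime-fed Alb-Cre liver, the Spon2 rhythm had adjusted p = 0.0758 without TMM, 0.132 fitted alone and 0.000586 to 0.25 with each time left out. The genotype difference of liver rhythm under daytime feeding ranged from 0.00386 to 0.448 with each time left out. The genotype difference of Cpm in white fat ranged from 0.50 to 0.77 log2 units. The cause was not tested.

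With the label of time and letter as a replicate block, the liver genotype difference of rhythm under daytime feeding passed (adjusted p = 0.0475), and no other call changed. The lung genotype differences were then -0.56 for Spon2 and -0.19 for Cpm. Across the groups of a tissue, same-label correlations of deviations had small medians, so the labels showed no general pairing of libraries. In lung 6 of 72 were over 0.1 (median -0.00116, range -0.65 to 0.58). In white fat 25 were (median 0.06, range -0.70 to 0.56), and in liver 8 were (median 0.02, range -0.13 to 0.21). Single correlations were thus large in lung and white fat.

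Taking the highest against the lowest time mean in place of the cosine, the Spon2 peak in lung was at 2 h in all 4 groups, and the range was 2.82, 5.27 and 2.86 log2 units in daytime-fed Alb-Cre, ad libitum BLKO and daytime-fed BLKO lung. For Cpm the peak was at 6, 4 and 20 h in ad libitum Alb-Cre, ad libitum BLKO and daytime-fed BLKO lung, and the range was 0.77 and 0.46 in daytime-fed Alb-Cre and BLKO lung. Between libraries of the same time, r of Spon2 with Dbp was -0.498, -0.43 and -0.46 without daytime-fed Alb-Cre, ad libitum BLKO or daytime-fed BLKO lung, with calls lost. Cpm passed with Npas2 (r = 0.55, adjusted p = 0.00177) and Tef (r = -0.44, adjusted p = 0.021, permutation test) without ad libitum BLKO lung.

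Counts over all genes stayed within 1.5 times in 475 cases and moved further in 33. Fitted alone, rhythmic genes fell from 163 to 74 in daytime-fed Alb-Cre lung, from 2300 to 1094 and from 436 to 198 in daytime-fed Alb-Cre and ad libitum BLKO fat, and from 595 to 186 in ad libitum BLKO liver. With each time left out, the lung counts ranged from 1018 to 1946 (main 1781), 101 to 244 (163) and 71 to 137 (121) in ad libitum Alb-Cre, daytime-fed Alb-Cre and daytime-fed BLKO mice. Further ranges were 958 to 1718 (1508) in ad libitum BLKO lung, 487 to 1482 (879) and 247 to 557 (436) in ad libitum Alb-Cre and BLKO fat, and 341 to 798 (595) and 391 to 676 (689) in ad libitum and daytime-fed BLKO liver. For feeding they were 294 to 620 (539) and 196 to 460 (379) for the mean in BLKO lung and liver, 657 to 1195 (1129) for the mean in Alb-Cre fat and 872 to 1300 (1310) for its rhythm. Lung troughs of Spon2 rest on as few as 3 reads, and Cpm in liver on at most 11.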
